A study of Homo sapiens with 8 samples.

Results

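The genes of the ID family and of the feedback that surrounds bone morphogenetic protein (BMP) signalling were followed on 8 arrays of human neuroblastoma cells in which the ion channel and kinase TRPM7 had been targeted. The set holds 10 genes, ID1, ID2, ID3, ID4, SMAD6, SMAD7, BAMBI, BMP4, BMP7 and DAND5. Their members are the 15 probes, of 47322 on the array, to which the deposited table gives one of these symbols. The set was chosen by earlier values: ID3 was known to be lower in both cell lines after TRPM7 knockdown, and DAND5 was known to be among the largest decreases in SH-SY5Y cells. The genes were selected on these values, so that ID3 in both knockdown comparisons and DAND5 in SH-SY5Y cells are described without a test. The question put to the other members was whether they follow ID3.

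SH-SY5Y is a neuroblastic and SH-EP2 an epithelial-like line, and both are subclones of the SK-N-SH line. Each was stably transduced with a lentiviral pLKO vector, selected with puromycin, and carried either a TRPM7 shRNA or a nonfunctional scrambled shRNA as control. All 4 groups thus carry a vector, and a single TRPM7 shRNA sequence was used on the arrays. Each group has 2 arrays. Neither the labels nor the study's methods say whether the duplicates are separate cultures, so that the p-values measure only spread between arrays. In the model used here, a probe's own spread is pooled with that of other probes of similar brightness.

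BMPs are secreted ligands of the TGF-beta superfamily. They bind paired type I and type II receptors, which phosphorylate SMAD1, SMAD5 and SMAD9, and these enter the nucleus with SMAD4. ID1, ID2 and ID3 are among the direct targets of that complex in many cell types. ID proteins have a helix-loop-helix domain but no DNA-binding region, and they hold E proteins such as TCF3 and TCF4 away from DNA. The inhibitory SMAD6 and SMAD7 and the decoy receptor BAMBI are themselves induced by the pathway and dampen it. DAND5 is a secreted antagonist of the Cerberus and DAN family. In the embryo, BMPs from the dorsal aorta drive neural crest cells towards the sympathetic lineage, from which neuroblastoma arises.

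Of the 10 genes, 6 have 1 probe and 4 have several. At a detection p under 0.05, 9 of the 15 probes were detected on all 8 arrays, 5 on some and 1, a BMP4 probe, on none. Values are log2 of the bead signal after background correction and quantile normalization, given for both arrays of a group. The lowest detected signals correspond to log2 values between 3.0 and 3.2 per array. Groups were compared in 1 limma fit of all probes, with two-sided p-values adjusted by Benjamini-Hochberg over the 47322 probes.

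The RefSeq promoters of the 4 members whose knockdown changes stand at the centre of the results are shown first, as 250 bases before the transcription start on GRCh38.p14. Capitals mark matches to GGCGCC, the GC-rich site described for SMAD1 and SMAD5, and to GNCGNCNNNNNGTCT, a composite BMP element in which a GC-rich part precedes a SMAD4 half-site. Both strands were searched. ID1 is at chr20:31605039-31605288 (+), ID3 at chr1:23559502-23559751 (-), SMAD6 at chr15:66701986-66702235 (+) and BAMBI at chr10:28677271-28677520 (+).
ID1: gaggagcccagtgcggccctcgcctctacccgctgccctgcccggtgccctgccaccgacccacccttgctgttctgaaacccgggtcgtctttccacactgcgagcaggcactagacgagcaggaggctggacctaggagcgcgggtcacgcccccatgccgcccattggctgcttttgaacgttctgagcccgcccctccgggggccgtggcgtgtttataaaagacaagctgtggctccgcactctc
ID3: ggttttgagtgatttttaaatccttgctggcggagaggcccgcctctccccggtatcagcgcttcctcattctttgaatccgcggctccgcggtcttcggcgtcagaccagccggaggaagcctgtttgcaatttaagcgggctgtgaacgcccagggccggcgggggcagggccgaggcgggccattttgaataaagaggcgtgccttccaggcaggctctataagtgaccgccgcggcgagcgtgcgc
SMAD6: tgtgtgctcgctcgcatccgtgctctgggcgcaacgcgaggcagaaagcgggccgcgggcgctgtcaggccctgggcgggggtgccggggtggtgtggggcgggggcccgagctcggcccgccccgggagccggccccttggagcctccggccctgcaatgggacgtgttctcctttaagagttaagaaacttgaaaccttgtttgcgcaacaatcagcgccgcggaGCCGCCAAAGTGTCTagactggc
BAMBI: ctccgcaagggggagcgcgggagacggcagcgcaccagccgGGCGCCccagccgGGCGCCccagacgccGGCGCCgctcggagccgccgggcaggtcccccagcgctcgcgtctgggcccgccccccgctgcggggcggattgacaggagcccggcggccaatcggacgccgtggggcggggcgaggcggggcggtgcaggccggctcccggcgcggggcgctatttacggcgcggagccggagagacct
The BAMBI promoter holds 3 matches to GGCGCC, at 209, 196 and 181 bases before the start. SMAD6 holds 1 composite element 23 bases before the start, which overlaps a match to the doubled SMAD4 half-site GTCTAGAC at 12 bases. None of these 3 motifs is in the windows of ID1 and ID3, and sequence further upstream was not searched for any gene. Across all 35116 RefSeq promoters of the same length, GGCGCC is in 16.4%, GTCTAGAC in 0.182% and the composite element in 0.607%. Of the 13 promoters that the table lists for 9 of the 10 members, 2 hold GGCGCC, the other being a BMP4 promoter. The related sequence GGAGCC is in 7 of the 13 and in 30.6% of all. These matches are descriptions of sequence and not sites of binding. The table used has no entry for BMP7.

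TRPM7 itself has 1 probe, and none of the 8 arrays detected it, so that the knockdown could not be read from them. The study reports stable TRPM7 knockdown in both lines, with TRPM7 mRNA measured apart from the arrays by quantitative RT-PCR. The markers of the lines did separate. Of 10 neuroblastic markers, 9 were higher in SH-SY5Y control cells, with a median level of 11.06 against 2.69 in SH-EP2. Of 10 epithelial-like markers, 9 were higher in SH-EP2 control cells and 1 in SH-SY5Y. Between 40.8% and 44.2% of the probes were detected per array. After knockdown 3 of the 10 neuroblastic and 4 of the 10 epithelial-like markers were lower in SH-SY5Y cells, as were 1.3% of all probes. In SH-EP2 cells 3 epithelial-like markers were lower and 1 higher, where 1.54% of all probes were lower and 1.48% higher. The neuroblastic marker CHGA passed there too, but no SH-EP2 array detected it. The part of these shifts in the results below was not tested, and in bulk RNA fewer cells of a type and less RNA per cell cannot be told apart.

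ID3, the gene the set was built around, was lower with TRPM7 shRNA in both lines by a similar amount. In SH-SY5Y cells its probe (ILMN_1732296) read 10.62 and 10.80 on the control arrays and 10.10 and 10.14 on the TRPM7 shRNA arrays. In SH-EP2 cells it read 10.71 and 10.56 against 10.10 and 10.17. No TRPM7 shRNA array reached a control array in either line. The log2 fold change was -0.59 in SH-SY5Y, a 1.51-fold decrease, and -0.50 in SH-EP2, a 1.41-fold decrease. The changes in the lines were 0.090 apart, which is given without a test for the same reason.

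ID1, a close relative of ID3 and a classical BMP target, fell in SH-SY5Y cells and not detectably in SH-EP2 cells. Its bright probe (ILMN_1664861) read 10.26 and 10.38 in SH-SY5Y control cells and 9.53 and 9.53 in SH-SY5Y TRPM7 shRNA cells. In SH-EP2 cells it read 10.55 and 10.41 in controls against 10.56 and 10.48, and these groups overlapped. This 1.73-fold decrease in SH-SY5Y, -0.79 as log2, had a standard error of 0.089 (adjusted p = 1.76e-05). In SH-EP2 it was 0.037 (95% confidence interval -0.15 to 0.22, adjusted p = 0.934), an interval that does not reach the decrease measured for ID3 there. That decrease of ID3 was a value the set was chosen on, so that the comparison is a description. The effect of the knockdown on ID1 differed between the lines by 0.83 (standard error 0.13, adjusted p = 0.000862). The dim ID1 probe (ILMN_1665832) read between 4.67 and 5.75 on the 8 arrays, and its groups overlapped. Its change in SH-SY5Y was -0.35 (95% confidence interval -0.97 to 0.28, adjusted p = 0.754), which includes that of the bright probe.

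ID2 showed no change past the threshold in either line, by both of its probes. The brighter probe (ILMN_2086095) read 11.24 and 11.02 in SH-SY5Y control cells and 11.10 and 11.38 with TRPM7 shRNA. Its log2 fold change was 0.11 in SH-SY5Y (95% confidence interval -0.13 to 0.35, adjusted p = 0.809) and -0.026 in SH-EP2 (-0.27 to 0.21, adjusted p = 0.967). The other probe (ILMN_1793990) gave -0.0074 (-0.22 to 0.20) and -0.052 (-0.26 to 0.16). All 4 intervals leave out the values of ID3. Those values chose the set, so that this is a description and not a test against ID3.

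ID4, which holds E proteins as the other members do, was at the limit of detection. Its probe (ILMN_1721758) read 3.80 and 2.16 in SH-SY5Y control cells, where 1 of 2 arrays detected it, and 3.99 and 3.21 with TRPM7 shRNA, where both did. These groups overlapped and the change did not pass (log2 fold change 0.62, standard error 0.51, adjusted p = 0.738). No SH-EP2 array detected ID4.

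**Figure D1:**
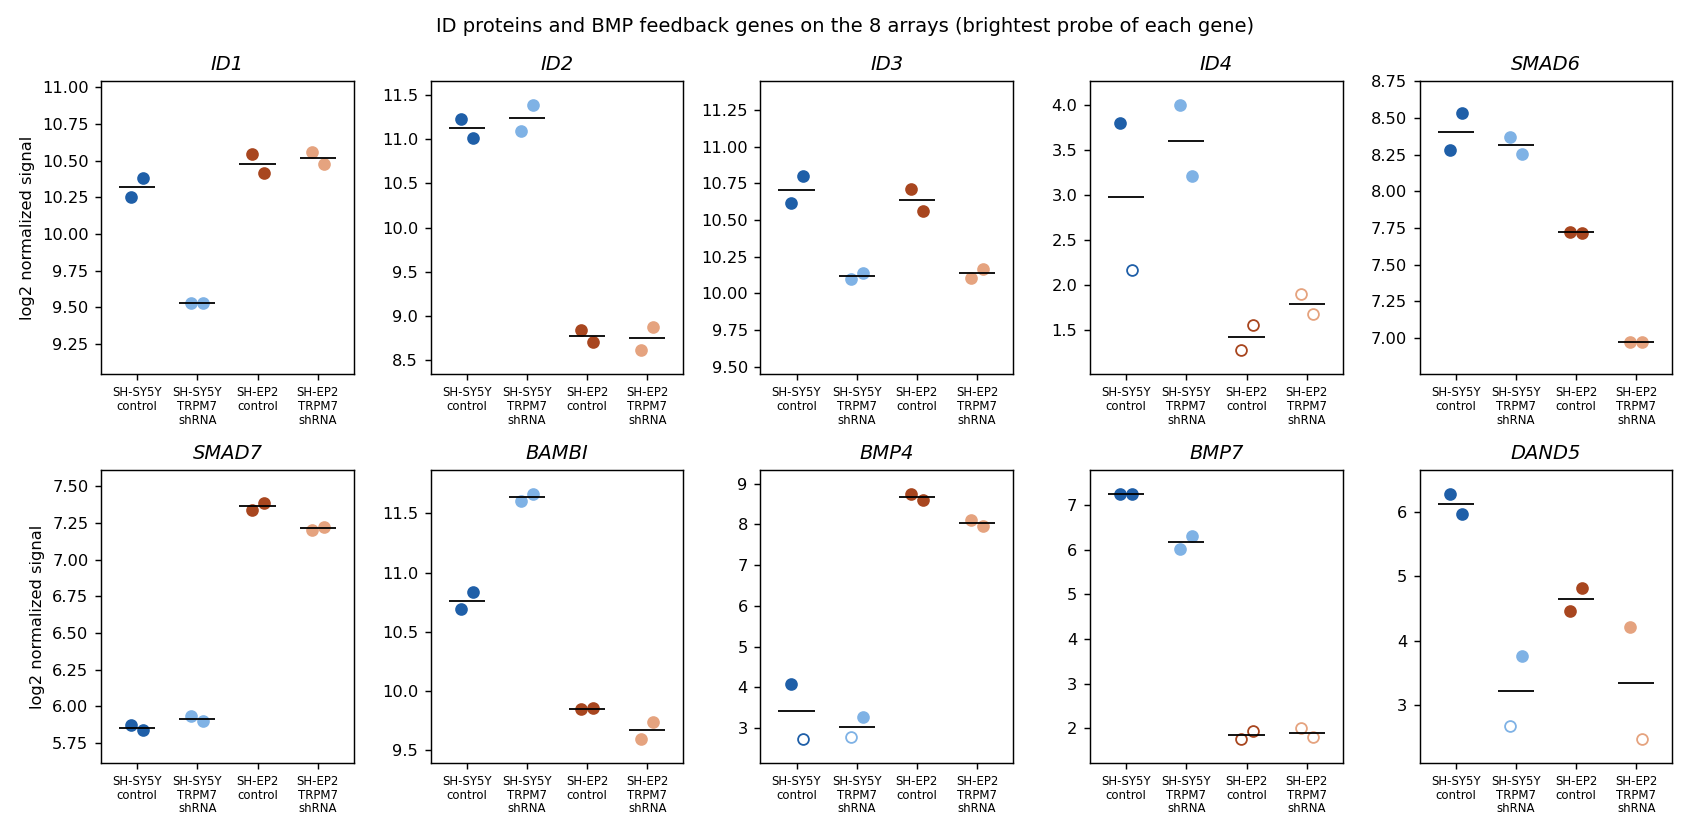
Log2 normalized signal (vertical axis) of the brightest probe of each of the 10 genes in the 4 groups. Each point is 1 array, filled where the probe was detected (detection p under 0.05) and open where it was not, and the bar is the mean of 2 arrays. The vertical axes differ between panels. ID3 is lower with TRPM7 shRNA in both lines, ID1 in SH-SY5Y and SMAD6 in SH-EP2, and BAMBI is higher in SH-SY5Y.

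Of the inhibitory SMADs, SMAD6, which competes with SMAD4 for receptor-activated SMAD1, fell in SH-EP2 cells. Its probe (ILMN_1767068) read 7.72 and 7.72 in SH-EP2 control cells and 6.97 and 6.97 with TRPM7 shRNA. In SH-SY5Y cells it read 8.28 and 8.53 against 8.37 and 8.26, with overlap. The change was -0.75 (log2) in SH-EP2, a 1.68-fold decrease with a standard error of 0.13 (adjusted p = 0.0021), and -0.094 in SH-SY5Y (95% confidence interval -0.37 to 0.19, adjusted p = 0.879). The difference between the lines was -0.66 (adjusted p = 0.116) and did not pass, so that SMAD6 is not shown to respond differently in them.

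SMAD7, which blocks type I receptors of both the BMP and the TGF-beta branch, did not pass in either line by either probe. The first probe (ILMN_2203891) read 5.87 and 5.84 in SH-SY5Y control cells and 5.93 and 5.90 with TRPM7 shRNA. In SH-EP2 it read 7.33 and 7.39 against 7.20 and 7.22. The groups did not overlap, and the changes were 0.060 (adjusted p = 0.948) and -0.15 (adjusted p = 0.815). The second probe (ILMN_2203896) gave 0.45 in SH-SY5Y (95% confidence interval -0.0016 to 0.91, adjusted p = 0.442) and 0.15 in SH-EP2 (adjusted p = 0.87). The 2 probes thus differed in sign in SH-EP2.

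BAMBI, a receptor-like protein without a kinase domain that is induced by BMP and TGF-beta signals, moved opposite to ID3 in SH-SY5Y cells. Its probe (ILMN_1691410) read 10.69 and 10.83 in SH-SY5Y control cells and 11.61 and 11.66 with TRPM7 shRNA. In SH-EP2 cells it read 9.84 and 9.85 against 9.60 and 9.74. The 1.83-fold increase in SH-SY5Y, 0.87 as log2, had a standard error of 0.087 (adjusted p = 3.44e-06). In SH-EP2 the value was -0.18 (95% confidence interval -0.36 to 0.00096, adjusted p = 0.402). The effects differed between the lines by -1.05 (standard error 0.12, adjusted p = 4.27e-05).

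The ligands were each measured clearly in 1 line. BMP7 (ILMN_1741566) read 7.23 and 7.24 in SH-SY5Y control cells and 6.02 and 6.31 with TRPM7 shRNA, without overlap. The change of -1.07 (log2) had a standard error of 0.34 and did not pass (adjusted p = 0.137). It passed under 4 of the 18 alternatives, namely neqc, normexp, no background correction and SH-SY5Y arrays fitted alone. No SH-EP2 array detected BMP7. BMP4 (ILMN_1740900) read 8.74 and 8.61 in SH-EP2 control cells and 8.10 and 7.97 with TRPM7 shRNA, a change of -0.64 (95% confidence interval -1.30 to 0.017, adjusted p = 0.418). It passed with normexp, without background correction and with the line fitted alone. In SH-SY5Y cells 1 of 2 arrays of each group detected it, and its change of -0.38 (adjusted p = 0.735) did not pass, although it did without SH-SY5Y control replicate 2 (log2 fold change -1.07). A dimmer BMP4 probe (ILMN_1709734) read 3.72 and 4.77 in SH-EP2 control cells and 2.42 and 3.36 with TRPM7 shRNA (-1.36, adjusted p = 0.207), and no SH-SY5Y array detected it. No array detected the remaining BMP4 probe (ILMN_1693749).

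DAND5 (ILMN_2230178) read 6.28 and 5.97 in SH-SY5Y control cells and 2.66 and 3.76 with TRPM7 shRNA, where 1 of 2 arrays detected it. The log2 difference of -2.91 is given as a description. Its size is loosely set, since it ranged from -3.43 to -0.61 over the alternatives. In SH-EP2 cells it read 4.46 and 4.82 in controls and 4.21 and 2.47 with TRPM7 shRNA, where again 1 of 2 arrays detected it. That change was -1.30 (standard error 0.47, adjusted p = 0.197) and did not pass, although it did without SH-EP2 TRPM7 shRNA replicate 1 (log2 fold change -2.18).

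**Figure D2:**
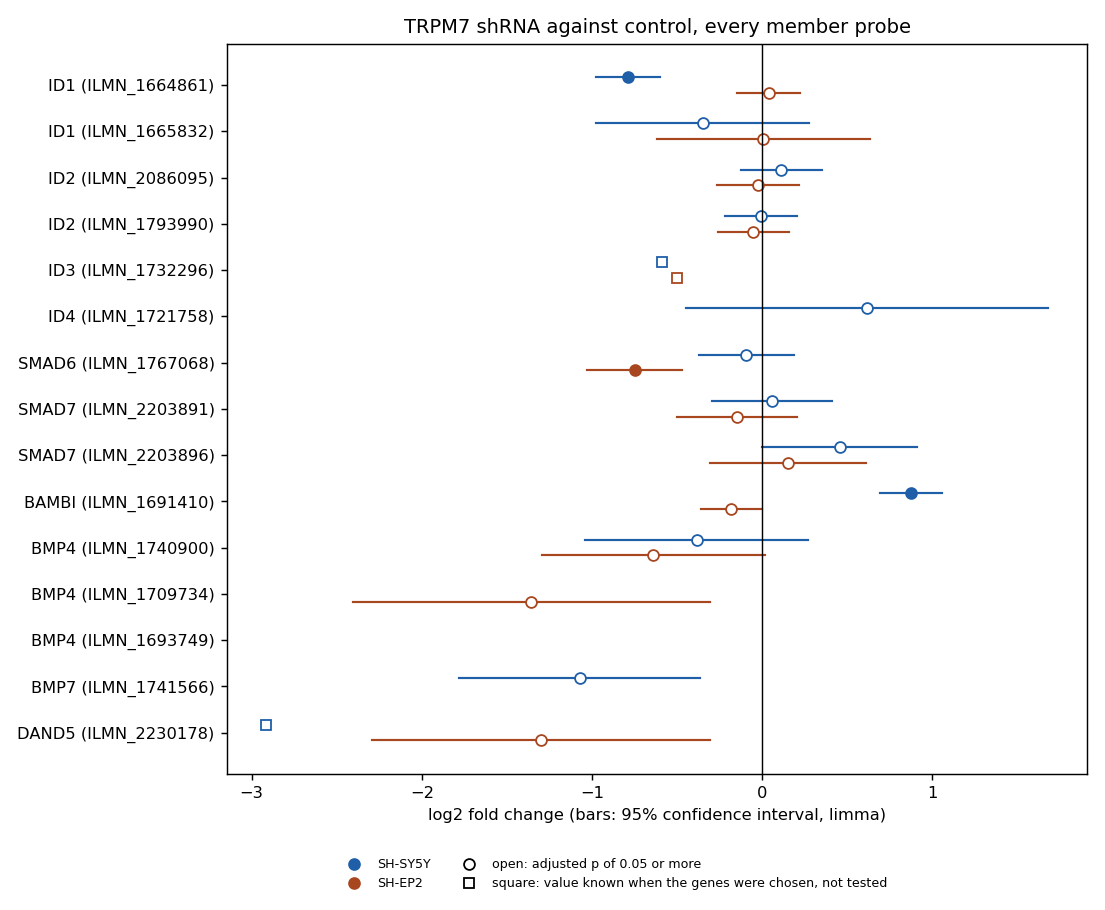
Log2 fold change of TRPM7 shRNA against control cells (horizontal axis) for each of the 15 probes, 2 arrays per group. Bars are 95% confidence intervals of the limma fit and filled points have an adjusted p under 0.05. Squares are values known when the genes were chosen and carry no test. Probes that no array of either group detected have no point. The tested members that passed are ID1 (-0.79) and BAMBI (0.87) in SH-SY5Y and SMAD6 (-0.75) in SH-EP2.

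Counted together, 4 of the 15 probes had an adjusted p under 0.05 in SH-SY5Y cells, as had 2.11% of all probes. ID1, ID3 and DAND5 were lower (1.3% of all probes) and BAMBI was higher (0.807%). In SH-EP2 cells 2 of 15 did, ID3 and SMAD6, both lower, where 3.02% of all probes passed, 1.54% lower and 1.48% higher. ID3 and DAND5 enter these counts by the values they were selected on, so that nothing is read from the counts. Without the ID3 probe they were 3 of 14 in SH-SY5Y, where DAND5 still counts, and 1 of 14 in SH-EP2. The SH-SY5Y calls not chosen on these values were ID1, lower, and BAMBI, higher. The median log2 fold change of the 15 probes was -0.094 in SH-SY5Y and -0.15 in SH-EP2, beside 0.0048 and 0.0061 over all probes. The arrays of the groups did not overlap for 7 probes in SH-SY5Y, 4 of them lower and 3 higher, and this was so for 39.1% of all probes. In SH-EP2 they did not overlap for 9, 8 lower and 1 higher, against 42.9% of all. The 1 higher was ID4, which no SH-EP2 array detected. The 8 lower include ID3 and every BMP4 probe, also the one that no array detected. The 4 lower in SH-SY5Y include ID3 and DAND5. The share of all probes in each direction was not counted, so that no common shift is read from these splits. At an unadjusted p under 0.05 the count was 5 in each line. It includes the selected ID3 and DAND5 values and, in SH-EP2, the BMP4 probe that no array detected. The share of all probes at an unadjusted p was not counted under any setting, so that nothing is read from such counts. All calls named here were lost when eBayes was run without an intensity trend and in per-probe tests without eBayes, which called 0 of 15 in either line (5 in SH-SY5Y and 4 in SH-EP2 at an unadjusted p under 0.05). Median scaling kept them and turned the split of all calls in SH-SY5Y from 382 higher and 617 lower to 553 and 284. For the difference of the effects between lines, 2 of 15 probes passed, ID1 and BAMBI, and 1.4% of all probes did.

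The control cells of the lines were then compared. This contrast was not itself used to choose the genes, but it shares control arrays with the values that chose ID3 and DAND5. For those genes it is not independent of the choice. Here 11 of 15 probes, of 8 genes, passed, 4 higher and 7 lower in SH-EP2, where 26.2% of all probes passed. ID1 and ID3 were the genes without a difference past the threshold. ID3 differed by -0.072 (95% confidence interval -0.26 to 0.12, adjusted p = 0.669) and the bright ID1 probe by 0.16 (-0.025 to 0.35, adjusted p = 0.231). The dim ID1 probe differed by -0.54 (-1.16 to 0.088, adjusted p = 0.238), an interval that leaves room for a lower level in SH-EP2. ID2 stood apart from them. It read 8.84 and 8.70 in SH-EP2 controls against 11.24 and 11.02 in SH-SY5Y controls, a difference of -2.35 (standard error 0.11, adjusted p = 1.61e-12), or 5.11-fold, and the second probe gave -1.95 (adjusted p = 3.84e-12).

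Of the feedback genes, SMAD6 (-0.69, adjusted p = 0.000373) and BAMBI (-0.91, adjusted p = 4.37e-08) were lower in SH-EP2 controls. SMAD7 was higher by both probes, by 1.51 (adjusted p = 4.22e-07) and 0.81 (adjusted p = 0.00723). The latter call was lost under 5 of 17 alternatives, among them the replicate block (0.71, adjusted p = 0.0954) and leaving out SH-EP2 control replicate 2 (0.77) or SH-SY5Y control replicate 2 (0.65). DAND5 was lower (-1.48, adjusted p = 0.0236), but did not pass without any 1 of the 4 control arrays (-1.66 to -1.30). The ligands divided the lines. BMP4 read 8.74 and 8.61 in SH-EP2 and 4.09 and 2.74 in SH-SY5Y controls, where 1 array detected it, a difference of 5.26 (standard error 0.31, adjusted p = 3.84e-11). Its size is loosely set, since the SH-SY5Y values lie at the detection limit. It was 4.58 without SH-SY5Y control replicate 2, 5.93 without SH-SY5Y control replicate 1 and 2.09 without background correction, and it passed under all 17 alternatives. The dimmer BMP4 probe was at least 2.13-fold higher in SH-EP2 (adjusted p = 0.000533). BMP7 was at least 16.1-fold lower in SH-EP2, where it was not detected (adjusted p = 8.47e-11). For these bounds the mean of the detected group was set against the lowest detected signal per array. ID4 passed (adjusted p = 0.0263), but with 1 of 4 control arrays above detection no fold is given. The call was lost under 8 of 17 alternatives, among them neqc, both blocks (adjusted p = 0.303 with the replicate block) and leaving out either SH-EP2 control array or SH-SY5Y control replicate 1.

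The order of the levels over the 4 groups follows from these values. For BMP4 (ILMN_1740900) and SMAD7 (ILMN_2203891) both SH-EP2 groups were above both SH-SY5Y groups, and for ID2, SMAD6, BAMBI and BMP7 both SH-SY5Y groups were above. Within a line the neighbours ID2 control and ID2 TRPM7 shRNA did not differ beyond their spread. For ID3 both control groups were above both TRPM7 shRNA groups, and within each pair the lines did not differ beyond their spread. For the bright ID1 probe the SH-SY5Y TRPM7 shRNA group lay below the 3 others. The dim ID1 probe did not show this order, its SH-SY5Y groups having the highest means.

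**Figure D3:**
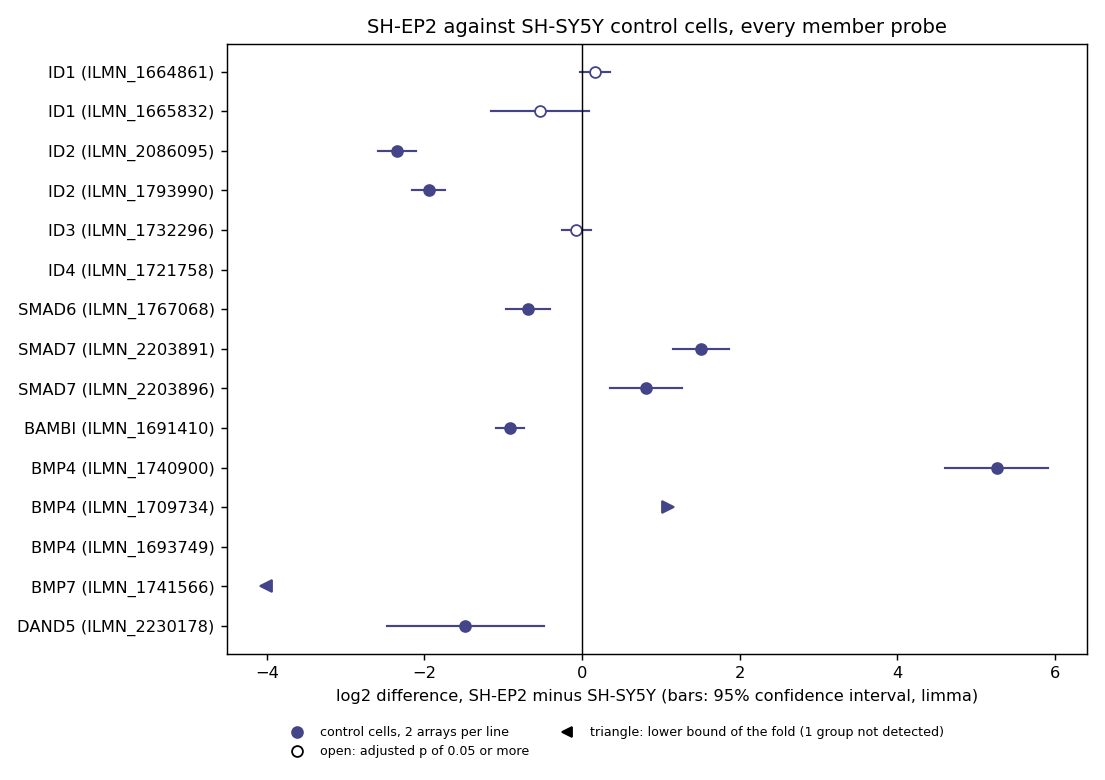
Log2 difference between SH-EP2 and SH-SY5Y control cells (horizontal axis, SH-EP2 minus SH-SY5Y) for each of the 15 probes, 2 arrays per line. Bars are 95% confidence intervals of the limma fit, filled points have an adjusted p under 0.05, and triangles are the lower bound of the fold where 1 line did not detect the probe. ID4 and 1 BMP4 probe have no point. ID3 and the bright ID1 probe are at -0.072 and 0.16 and the dim ID1 probe at -0.54, while BMP4 is at 5.26 and both ID2 probes are at -2.35 and -1.95.

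To describe which genes varied as ID3 did, log2 signals were centred within each line and correlated with the ID3 probe over the 8 arrays, among 14577 probes detected on all of them. The 5 highest Pearson r were those of FLYWCH2 (0.998), CLDND1 (0.995), DYNLRB1 (0.993), a probe without a symbol (ILMN_1911042, 0.992) and IGFBP3 (0.990). Among the members r was 0.73 for ID1, 0.73 for SMAD6, -0.57 for BAMBI and -0.17 for the brighter ID2 probe. DAND5 had 0.82, BMP7 0.68 and the brighter BMP4 probe 0.44, though these were not detected on all arrays. The 8 points share 2 lines and the knockdown that chose ID3, so that these are descriptions.

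The rest of the pathway was covered by 8 lists of 61 further genes, 1 probe per gene, of which 50 were detected on at least 1 array. In SH-SY5Y cells 7 passed, 2 higher and 5 lower, where 2.57% of all genes did. In SH-EP2 cells 5 passed, all lower, where 3.67% of all genes did. The median log2 fold changes were -0.11 and -0.072. None of the 10 other BMP ligands, 4 SMAD transducers and 5 intracellular inhibitors passed in either line. The lists were assembled with earlier results of these data known.

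Of 10 receptors and co-receptors, 1 passed in each line, lower in both cases. ENG, which encodes the co-receptor endoglin, read 5.86 and 5.81 in SH-SY5Y control cells and 4.03 and 4.23 with TRPM7 shRNA (-1.71, standard error 0.15, adjusted p = 5.57e-07). In SH-EP2 cells ENG was also lower, with 9.93 and 9.92 against 9.43 and 9.61, but did not pass (-0.41, adjusted p = 0.186). RGMB, a membrane-anchored BMP co-receptor, read 6.16 and 6.15 in SH-EP2 control cells and 5.13 and 5.31 with TRPM7 shRNA (-0.94, adjusted p = 0.0478). The receptor genes BMPR1A, BMPR2 and ACVR1 were detected on all arrays and did not pass, with values between -0.29 and -0.092. The receptor gene ACVR2A and the co-receptor gene RGMA, detected on all arrays too, did not pass with values between 0.054 and 0.19.

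Of 15 secreted antagonists and modulators, 2 were lower in SH-SY5Y and 1 in SH-EP2. NBL1, a DAN family antagonist, read 10.06 and 9.97 in SH-SY5Y control cells and 8.67 and 8.93 with TRPM7 shRNA (-1.21, adjusted p = 1.41e-06). FSTL3, which binds activins, was lower in SH-EP2 (-0.59, adjusted p = 0.04).

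Among 9 further BMP-responsive genes, the homeobox genes DLX5 and MSX1 rose in SH-SY5Y cells, where ID1 fell. The study had already reported both as higher there from these arrays, and they are the 2 higher pathway calls in that line. Their adjusted p-values in SH-SY5Y are thus no independent support. DLX5 read 3.61 and 4.10 in SH-SY5Y control cells and 6.12 and 6.37 with TRPM7 shRNA (2.39, adjusted p = 4.6e-05). In SH-EP2 cells it read 5.44 and 5.33 against 4.08 and 3.80 (-1.45, adjusted p = 0.00642), so that it moved in opposite directions in the lines. MSX1 read 3.69 and 2.41 in SH-SY5Y control cells, where 1 array detected it, and 4.78 and 4.24 with TRPM7 shRNA (1.46, adjusted p = 0.00426). The call was lost with normexp (0.31), without background correction (0.20) and with the line fitted alone (1.52), and the value ranged from 0.82 to 2.07 when 1 array was left out. HEY1, also a BMP target, did not pass in SH-SY5Y (0.41, adjusted p = 0.24) or SH-EP2 (0.020, adjusted p = 0.981).

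Of the 3 E proteins that ID proteins bind, TCF4 fell in SH-SY5Y cells (-0.60, adjusted p = 0.00147) from 10.93 and 11.03 to 10.40 and 10.37, and the others did not pass. Of 5 TGF-beta-responsive genes, LTBP2 was lower in SH-SY5Y (-0.93, adjusted p = 0.0183). In SH-EP2 CTGF, now named CCN2, was lower (-0.79, adjusted p = 0.0202). Several of these calls were lost when 1 array was left out. Those of RGMB, FSTL3 and CTGF in SH-EP2 did not hold without any 1 of that line's arrays, with values of -1.03 to -0.85, -0.66 to -0.52 and -0.89 to -0.71. That of DLX5 in SH-EP2 was lost on leaving out either control array or TRPM7 shRNA replicate 2 (-1.60 to -1.32). In SH-SY5Y, LTBP2 was lost without control replicate 1 or either TRPM7 shRNA array (-1.30 to -0.56), and MSX1 without TRPM7 shRNA replicate 1 (1.18).

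**Figure D4:**
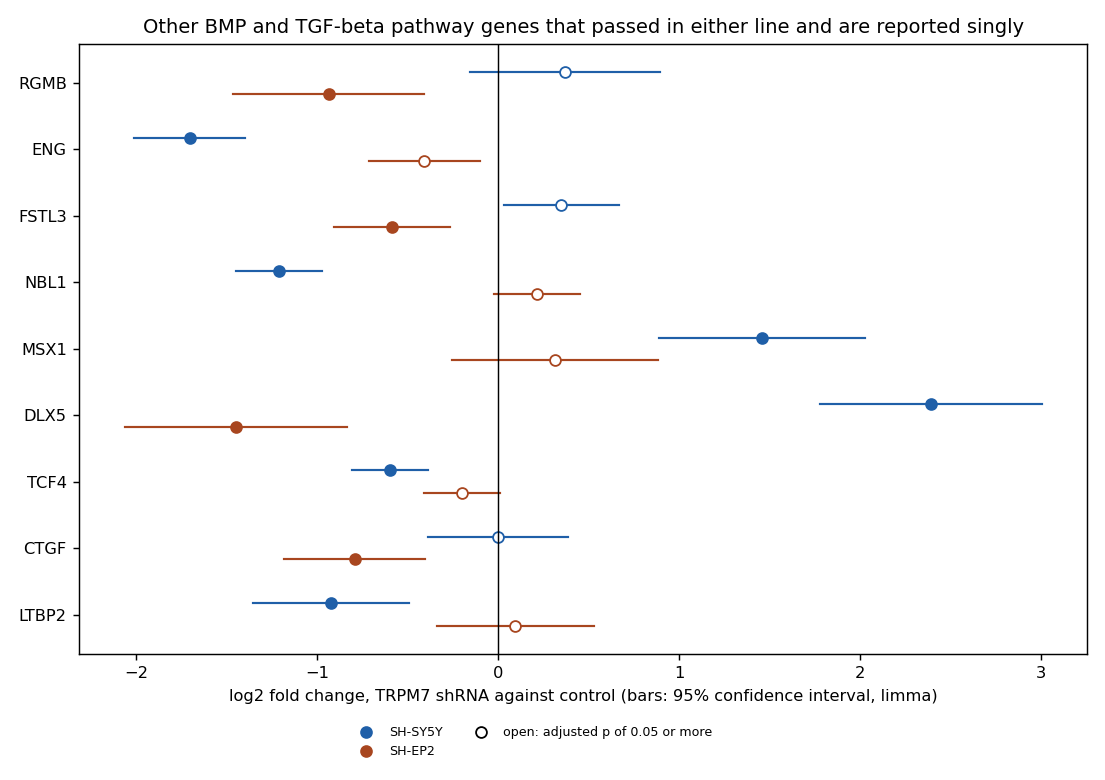
Log2 fold change of TRPM7 shRNA against control cells (horizontal axis) for the 9 further pathway genes that passed in at least 1 line and are reported singly, 2 arrays per group. Bars are 95% confidence intervals of the limma fit and filled points have an adjusted p under 0.05. DLX5 is at 2.39 in SH-SY5Y and -1.45 in SH-EP2.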

How the data were processed

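RNA of 8 samples was hybridized to Illumina HumanHT-12 v4 arrays, and the labels' cell line and shRNA define the 4 groups. The authors read bead intensities with GenomeStudio 2011.1 and deposited them for 47322 probes, linear and not normalized, each with a detection p-value. The genome build of the probe annotation is not given in the sources used here. The study's methods name Robust-Multi-Array normalization and no test.

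Here no probe was filtered out. Background was removed by the RMA model, followed by quantile normalization of all 8 arrays and log2. A linear model of the 4 groups was fitted in R 4.3.3 with limma 3.58.1 (lmFit, then eBayes with trend), with Benjamini-Hochberg adjustment over all probes and a threshold of 0.05. Median signals were 104.7 to 119.9 against a modelled background of 98.3 to 111.1, so that probes near log2 3 carry little information. Precision is limited by having 2 arrays per group. A bound is given where a group has no array that detected the probe, and no fold where neither group did.

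The members and gene lists were chosen with earlier results of these data known. Named are every member probe, TRPM7, list genes that passed in either line and were detected on both arrays of the brighter group (at most 12 per comparison), and the 5 probes most like ID3. BMPR1A, BMPR2, ACVR1, ACVR2A, RGMA and HEY1 were named after their values were seen. A list gene is given by its brightest probe, and 2 list genes enter the counts and are not reported singly here. Replicate numbers were not used to pair the arrays in the main fit. Deviations from the group means correlated at -0.11 in SH-SY5Y and -0.0045 in SH-EP2 over 14577 probes. With 2 arrays per group this cannot show whether replicates were handled together. Alternative settings were no background correction, median scaling, neqc with offset 16, normexp with offset 50, probes detected on at least 2 arrays, no intensity trend, per-probe tests, each line alone, a replicate block, and leaving out each array in turn. A crossed block in SH-SY5Y was added after the data were seen.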

Additional observations from a re-analysis of the deposited data

Results flagged for a closer look

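For 6 of the genes reported singly, the knockdown effect in SH-EP2 minus that in SH-SY5Y passed the test of the difference itself, the interaction term of the limma fit. Among the members these were ID1, with 0.83 (adjusted p = 0.000862), and BAMBI, with -1.05 (adjusted p = 4.27e-05). ID1 fell in SH-SY5Y while its arrays in SH-EP2 overlapped, and BAMBI rose in SH-SY5Y. Both differences were lost without an intensity trend and in per-probe tests, and held under the other alternatives.

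Among the further pathway genes, ENG differed by 1.30 (adjusted p = 0.00136) and NBL1 by 1.43 (adjusted p = 2.79e-05), and both fell in SH-SY5Y. In SH-EP2 neither passed, ENG being lower as well (-0.41, adjusted p = 0.186) and NBL1 at 0.21 (adjusted p = 0.476). FSTL3 differed by -0.94 (adjusted p = 0.0317) and fell in SH-EP2. DLX5 differed by -3.84 (adjusted p = 1.73e-05) and passed in opposite directions in the lines. The study had already reported its increase in SH-SY5Y from these arrays, so that this difference is no independent support. Over the alternatives its change ranged from 0.57 to 2.64 in SH-SY5Y and from -1.60 to -0.27 in SH-EP2. The differences of these further pathway genes were not run under the alternatives. No outlying arrays could be sought with 2 arrays per group.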

How the results depend on the processing

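The decrease of ID1 and the increase of BAMBI in SH-SY5Y, the decrease of SMAD6 in SH-EP2 and the differences of ID1 and BAMBI between lines kept their direction under all alternatives run, and were lost without an intensity trend and in per-probe tests. Without the trend the member calls fell to 0 in SH-SY5Y, SH-EP2 and the difference between lines (5, 4 and 5 at an unadjusted p under 0.05), and the pathway calls to 2 in SH-SY5Y and 0 in SH-EP2 (13 unadjusted). In per-probe tests all of these counts were 0 (5, 4 and 6 members and 14 and 10 pathway genes unadjusted). Calls over all probes fell to 64, 100 and 23 without the trend and to 50, 103 and 15 in per-probe tests. The share of all probes at an unadjusted p was not counted. The cause was not tested. The 5 pathway calls in SH-EP2 became 1 with median scaling, 10 with each line alone, 8 with normexp and 9 with no background step. The calls over all probes in SH-EP2 moved in the same directions, from 1429 to 985, 2587, 1997 and 2015. Without background correction 5 members differed between lines, where the calls over all probes rose from 662 to 1248. Replicate numbers were not used to pair the arrays in the main fit. The replicate block gave 3 pathway calls in SH-EP2, where the calls over all probes fell from 1429 to 1136. The crossed block left 4 member and 7 pathway calls in SH-SY5Y, where the calls over all probes rose from 999 to 1420. Leaving out 1 array gave 1 to 2 member calls in SH-EP2, 4 to 8 pathway calls in SH-SY5Y and 0 to 5 in SH-EP2. The ID3 value in SH-EP2, described without a test, ranged from -0.58 to -0.43. Values that did not pass changed sign. With median scaling ID2 (ILMN_1793990) in SH-SY5Y was 0.11, SMAD6 in SH-SY5Y 0.063 and the difference of ID3 between lines -0.017. The dim ID1 probe in SH-EP2 was -0.00088 with normexp and -0.00086 without background correction. On leaving out 1 array, ID2 ranged from -0.16 to 0.11 (ILMN_2086095) and -0.12 to 0.020 (ILMN_1793990) in SH-EP2, from -0.031 to 0.26 and -0.089 to 0.074 in SH-SY5Y, and from -0.28 to 0.0053 and -0.13 to 0.037 between lines. ID1 in SH-EP2 ranged from -0.030 to 0.11 and, by the dim probe, -0.26 to 0.27. ID3 ranged from -0.16 to 0.020 between control cells and -0.0013 to 0.18 between knockdown effects, SMAD6 in SH-SY5Y from -0.22 to 0.032, ID4 in SH-SY5Y from -0.20 to 1.42, and BMP4 (ILMN_1740900) from -1.07 to 0.29 in SH-SY5Y and -0.93 to 0.43 between lines. Where 1 array was left out, the remaining one was assumed to vary like the other groups.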
